A study of Mus musculus with 18 samples.

Results

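The genes described here are Ppara, Ppard, Pparg, Ppargc1a, Ppargc1b, Rxra, Adipor1, Adipor2, Prkaa1 and Prkaa2, which encode the peroxisome proliferator-activated receptors (PPARs), their coactivators and partner receptor, the adiponectin receptors and the catalytic subunits of AMP-activated protein kinase (AMPK). The rule picks them by symbol and uses no measured value, and all 10 were found among the 54532 genes of the table. Liver RNA of 18 male C57BL/6 mice (C57BL/6J in the methods) was sequenced, 6 in each of 3 groups. The mice were 6 weeks old on arrival, and all were fasted overnight before they were killed. The normal control (NC) mice received a standard diet, and the HFD and SZ-A mice a high-fat diet for 14 weeks and onward through treatment. NC and HFD mice were then given saline and SZ-A mice the alkaloids of Ramulus Mori, the mulberry twig, for 8 weeks. The design text gives this length, whereas the methods give 6 weeks. The dose and route used for the sequenced mice are not named in the sources used here, and no transgene or engineered deletion is named for any group.

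The deposited values are FPKM, fragments on a gene scaled to its length in kilobases and to a library size. Genes can thus be compared with each other as far as the 1 length given per gene holds for its transcripts in liver. The library size worked back from the values was not simply the fragments on genes. It was 0.933 to 1.02 times these in NC, 0.998 to 1.14 times in HFD and 0.972 to 1.05 times in SZ-A mice. The deposited scale thus differed from plain depth, and by group. Between 17163191 and 20493907 fragments per mouse fell on genes, a range that the 3 groups shared. Whole liver was sequenced, and the 8 hepatocyte markers together reached 38060 to 75230 FPKM. In such bulk RNA, fewer cells of a type and less RNA per cell cannot be told apart. For 1 mouse, NC6, the diet label reads high-fat diet while the title reads control diet, and the title was followed. The mouse NC5 stood apart from its group: it was the lowest or highest NC mouse for 64.4% of 10216 genes, against 19.06% to 49.06% for the other 17 mice in their own groups. Many results against NC are therefore also given without NC5 or NC6, or as the range with each mouse left out in turn. Mice of a group were taken as replicates, and p-values set a group difference against the spread between mice of a group. In limma that spread is moderated across all genes tested.

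PPARs are nuclear receptors that bind fatty acids and their derivatives and pair with a retinoid X receptor, here RXR-alpha (Rxra), to switch on genes of lipid metabolism. PPAR-alpha (Ppara) drives fatty acid oxidation and ketone production in the fasting liver, PPAR-gamma (Pparg) drives lipid storage and is induced in fatty liver, and PPAR-delta (Ppard) is expressed in most tissues. The coactivators PGC-1-alpha (Ppargc1a) and PGC-1-beta (Ppargc1b) bind these and other receptors and promote mitochondrial biogenesis, and in liver PGC-1-alpha also promotes gluconeogenesis. Adiponectin, a hormone of fat tissue, acts through AdipoR1 (Adipor1), linked mainly to AMPK, and AdipoR2 (Adipor2), linked mainly to PPAR-alpha. AMPK senses falling cellular energy, and its catalytic subunits alpha-1 (Prkaa1) and alpha-2 (Prkaa2) restrain lipid synthesis by phosphorylating their substrates, which RNA levels do not measure.

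Pparg was the only one of these genes called higher with the high-fat diet on the FPKM as deposited, by the thresholds given below. The table holds a single value for Pparg in each mouse although RefSeq gives it 3 start sites. The promoters, each 250 bases before to 50 after a start site on the plus strand of GRCm38.p6, are shown to make that difference visible, with the promoter of Ppara for comparison. Capitals mark matches on either strand to AGGTCA, the core of nuclear receptor sites, the CCAAT box, the TATA box TATAAA and TGACG, the core of cyclic-AMP elements.
Pparg, start site 1, chr6:115360894-115361193: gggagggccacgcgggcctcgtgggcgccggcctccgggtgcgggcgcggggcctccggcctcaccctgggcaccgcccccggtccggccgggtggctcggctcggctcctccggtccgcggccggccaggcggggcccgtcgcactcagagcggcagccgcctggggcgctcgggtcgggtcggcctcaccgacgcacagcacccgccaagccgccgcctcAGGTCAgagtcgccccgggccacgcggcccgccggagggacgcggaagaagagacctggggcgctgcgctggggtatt
Pparg, start site 2, chr6:115362099-115362398: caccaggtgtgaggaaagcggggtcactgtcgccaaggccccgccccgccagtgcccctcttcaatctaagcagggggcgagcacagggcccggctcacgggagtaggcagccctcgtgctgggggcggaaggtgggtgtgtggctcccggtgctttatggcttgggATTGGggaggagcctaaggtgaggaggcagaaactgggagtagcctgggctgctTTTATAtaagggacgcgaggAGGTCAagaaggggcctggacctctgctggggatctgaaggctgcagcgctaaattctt
Pparg, start site 3, chr6:115421816-115422115: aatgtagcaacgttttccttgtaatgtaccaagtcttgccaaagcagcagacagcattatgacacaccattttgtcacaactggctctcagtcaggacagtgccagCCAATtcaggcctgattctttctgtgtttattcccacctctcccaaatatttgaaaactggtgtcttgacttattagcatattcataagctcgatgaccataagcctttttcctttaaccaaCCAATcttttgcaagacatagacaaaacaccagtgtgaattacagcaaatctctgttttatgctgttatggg
Ppara, chr15:85735526-85735825: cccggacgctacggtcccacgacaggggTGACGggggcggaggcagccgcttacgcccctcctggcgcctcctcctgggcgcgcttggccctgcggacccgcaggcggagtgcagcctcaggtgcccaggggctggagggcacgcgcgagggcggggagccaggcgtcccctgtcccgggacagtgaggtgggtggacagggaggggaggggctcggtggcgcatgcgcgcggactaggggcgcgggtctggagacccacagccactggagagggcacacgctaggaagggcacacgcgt

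The first Pparg promoter was 80.3% G and C with 44 CpG pairs and held AGGTCA 28 to 23 bases before the start. The second was 62.7% G and C with 13 CpG pairs and held AGGTCA 9 to 4 bases before the start, with a CCAAT box and a TATA box on the opposite strand. That at start site 3 was 40.3% G and C with 2 CpG pairs and held 2 CCAAT boxes and no AGGTCA. The Ppara promoter was 74.7% G and C with 30 CpG pairs, against medians of 52.7% and 7 over the 32851 promoters of the table. Of all these promoters 16.3% held AGGTCA, 37.4% CCAAT, 13.6% TATAAA and 20.8% TGACG on either strand, so that each match is common. The full direct repeat of AGGTCA with 1 base between (DR1), the consensus PPAR site, stood in 0.0396% of all promoters, the E-box CACGTG in 7.15%, the D-box TTATGTAA in 0.938% and the full cyclic-AMP element TGACGTCA in 1.79%. These letters were in none of the 13 promoters used for 9 of the 10 genes (no promoter of Ppargc1b was used), and a match or its absence in these windows is a description of the letters only.

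The study designed primer pairs against 5 of these genes, and they are printed because they show which part of each gene such an assay reads, whereas the FPKM summarises all exons. By RT-PCR the study reported lower Pparg and higher Ppara, Ppargc1a, Adipor1 and Adipor2 in SZ-A than in HFD livers. It reported protein changes of the same direction for PPAR-gamma, PPAR-alpha and PGC-1-alpha. By FPKM, another measure, none of the 5 was called in that comparison, as given below. They were matched to the GENCODE M21 transcripts of GRCm38, and a capital marks a base that differs from the transcript.
Ppara, 153 bases, chr15:85777573-85777725, forward: agagccccatctgtcctctc
Ppara, reverse: actggtagtctgcaaaaccaaa
Pparg, 121 bases, chr6:115439916-115440036, forward: ggaagaccactcgcattcctt
Pparg, reverse: gtaatcagcaaccattgggtca
Ppargc1a, 292 bases, between 51490239 and 51495749 on chromosome 5, forward: atgaatgcagcggtcttagc
Ppargc1a, reverse: ggtttggcttgagcatgttg
Adipor1, 228 bases, between 134423051 and 134424756 on chromosome 1, forward: aatggggctccttctggtaac
Adipor1, reverse: Gcagaccttatacacgaactcc
Adipor2, 119 bases, chr6:119370190-119370308, forward: gccaaacaccgattggggt
Adipor2, reverse: ggctccaaatctccttggtagtt

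The Pparg pair lies in 1 exon that all 5 protein-coding transcripts share, so like the FPKM it does not tell the start sites apart. The Ppara pair matched 3 of 3 protein-coding transcripts, the Adipor2 pair 3 of 3, the Adipor1 pair 2 of 2 and the Ppargc1a pair 2 of 3. The Ppargc1a and Adipor1 products span introns, from exon 4 to exon 6 and from exon 2 to exon 4. The Adipor1 reverse primer differs from its transcripts by G1C, counted from 1 at its 5′ end.

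Rxra and Adipor2 had the highest levels of the 10 genes and the coactivators and Ppard the lowest. Over the 18 mice Rxra averaged 102 FPKM and Adipor2 84.9 FPKM, and Rxra was the higher in 15 of 18 mice, so their ranges overlapped. Ppara followed at 50.7 FPKM and lay below Adipor2 in 18 of 18 mice with no overlap. Adipor1 averaged 22.9 FPKM, below Ppara in 17 of 18 mice, the exception being NC5. Prkaa2, at 8.20 FPKM, lay below Adipor1 in every mouse with no overlap, and Pparg, at 4.89 FPKM, lay below Prkaa2 within each of the 18 mice although the 2 ranges overlapped. Prkaa1 averaged 2.65 FPKM, Ppargc1a 1.56 FPKM, Ppargc1b 1.15 FPKM and Ppard 0.923 FPKM. Of these, Ppargc1a exceeded Ppargc1b in 11 and Ppargc1b exceeded Ppard in 10 of 18 mice, so that these neighbours were not separated. Rxra was above 95.3% and Ppargc1b above 3.82% of the 10216 genes with a mean of at least 1 FPKM, the limit for the test across genes, which Ppard missed. The fragments behind a value ranged from 6572 to 13312 per mouse for Rxra and from 24 to 128 for Ppargc1b.

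**Figure D1:**
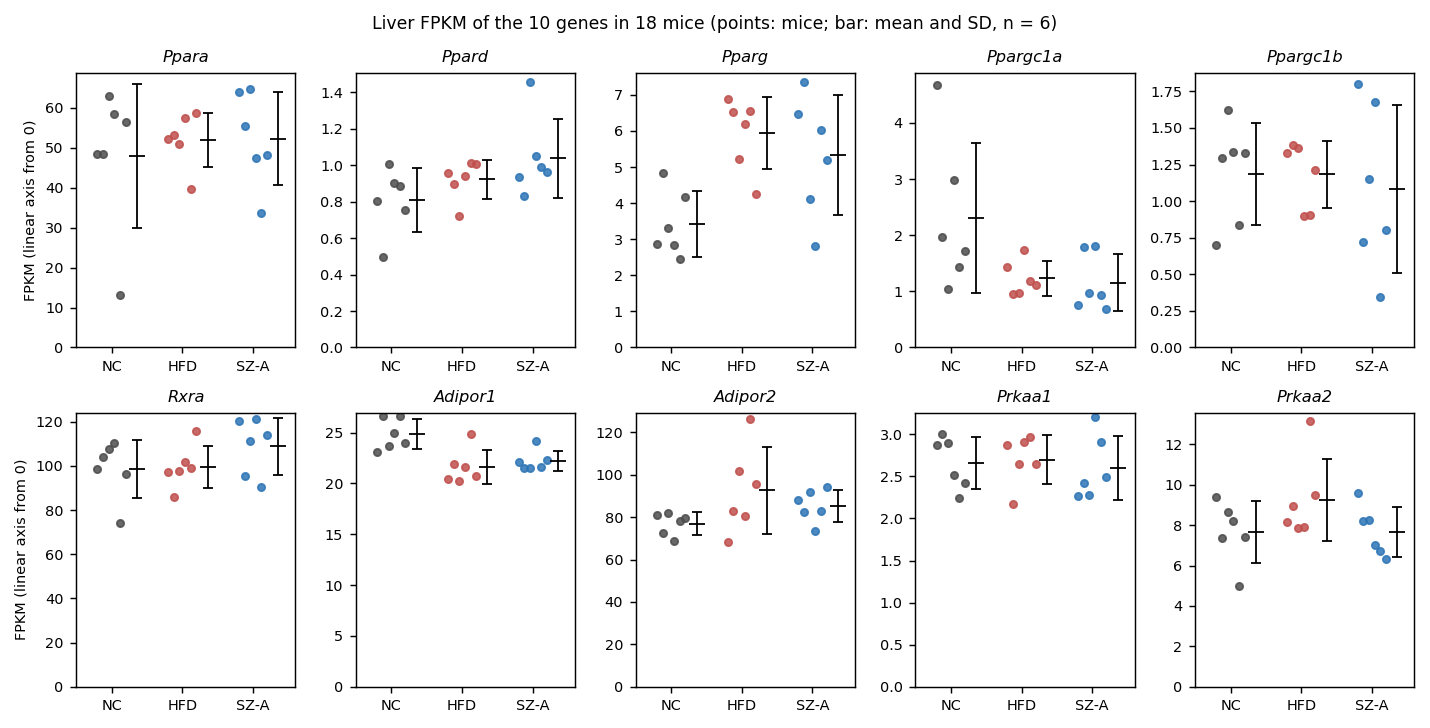
FPKM of each of the 10 genes (y axes, linear from 0) in the NC, HFD and SZ-A groups, with 1 point per mouse and a bar for the mean and SD of 6 mice. The HFD points of Pparg lie above all NC points except for HFD6, the NC5 point of Ppara lies far below the rest, and in no panel are 2 groups separated completely.

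Between groups, Pparg was the only one of the 10 genes called in any of the 3 comparisons by limma on the FPKM as deposited, where a call needs more than a 1.2-fold difference and an adjusted p below 0.05. It was called higher in HFD than in NC mice, 1 of 9 genes tested, against 20.2% of the 10216 genes (10.7% in the higher and 9.49% in the lower direction), and 3 of 9 had an unadjusted p under 0.05, against 34.8% of genes. In SZ-A against HFD mice 0 of 9 were called by limma, as by voom on whole fragments, and 0 had an unadjusted p under 0.05, against 0.147% of all genes called (0.0783% higher, 0.0685% lower) and 14.8% with such a p. Voom took the library sizes worked back from the FPKM, so its counts here and below do not check the deposited scale. In SZ-A against NC mice 0 of 9 were called by limma and by voom and 3 had an unadjusted p under 0.05, against 9.6% of all genes called (5.31% higher, 4.3% lower) and 25.5% with such a p. In none of the comparisons did the groups fail to overlap for any member, while this held for 10.5% of genes in HFD against NC, 1.28% in SZ-A against HFD and 5.5% in SZ-A against NC. The median log2 fold change of the 9 tested genes was 0.03 in HFD against NC, -0.09 in SZ-A against HFD and 0.01 in SZ-A against NC, beside -0.03, 0.03 and -0.01 over all genes. The comparisons share mice, so their values stand side by side and are not independent. With DESeq2 at the same thresholds, the study reported many more genes in SZ-A against HFD than limma called here.

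**Figure D2:**
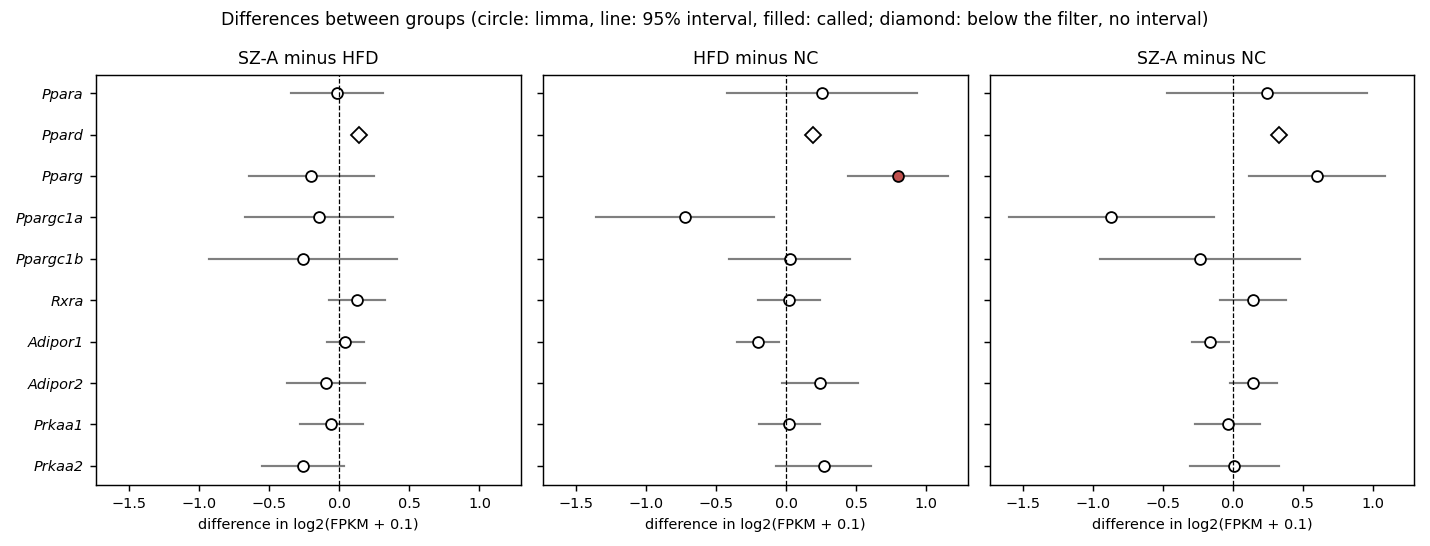
Difference in log2(FPKM + 0.1) between groups (x axes) for the 10 genes (rows) in the 3 comparisons, with 95% intervals as lines, called genes filled and Ppard, which was below the filter, as a diamond. Pparg in HFD minus NC is the filled point, at 0.80, and every interval in SZ-A minus HFD includes 0.

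Pparg (ENSMUSG00000000440, chromosome 6, 115360951 to 115490399 of GRCm38) was 2.45, 3.09 and 4.84 FPKM at the lowest, the median and the highest NC mouse. In HFD mice these values were 4.26, 6.36 and 6.87 FPKM, and in SZ-A mice 2.81, 5.61 and 7.36 FPKM. The HFD mice other than HFD6 thus lay above every NC mouse, while SZ-A mice covered nearly the whole range of both groups, with SZ-A4 the lowest and SZ-A2 the highest. The mean rose from 3.41 ± 0.911 FPKM in NC to 5.94 ± 0.998 FPKM in HFD mice (SD, n = 6 each). This was 1.74-fold, or 0.80 on the log2 scale (standard error 0.17, 95% interval 0.44 to 1.16, limma adjusted p = 0.00468), and 6 of 6 HFD mice were above the NC mean. Without NC5 the log2 fold change was 0.72 (limma adjusted p = 0.00799) and without NC6 it was 0.86 (limma adjusted p = 0.0045). With SZ-A the mean was 5.33 ± 1.66 FPKM, a log2 fold change of -0.20 against HFD (95% interval -0.65 to 0.25, limma adjusted p = 0.695). Against NC the SZ-A mice differed by 0.60 (95% interval 0.12 to 1.09, limma adjusted p = 0.111), which passed the threshold when SZ-A4 was left out (0.77, limma adjusted p = 0.0279). Of the 8 Kupffer cell and macrophage markers, a list of cells that can express Pparg, 3 were called higher in HFD than in NC mice and none lower. With a mouse left out, 2 to 3 were called higher, and NC5 was the lowest NC mouse for 7 of the 8. Of all genes 10.7% were called higher and 9.49% lower. The summed level of the 8 markers was 105 to 199 FPKM in NC, 207 to 311 FPKM in HFD and 167 to 242 FPKM in SZ-A mice, with none of the 8 at 0 throughout. Of the 10 adipocyte markers 4 were tested and 2 called higher (Cfd and Fabp4), and the sum was 37.3 to 120 FPKM in NC, 57.8 to 168 FPKM in HFD and 11.9 to 60.1 FPKM in SZ-A mice. In large part this sum was Cidec, which is also among the PPAR-gamma targets, and Cfd. Cidec alone was 29.5 to 115 FPKM in NC, highest in NC5, 14.5 to 51.1 FPKM in HFD and 5.29 to 43.9 FPKM in SZ-A mice. Cfd was 19.4 to 135 FPKM in HFD mice. The sum is thus no measure of adipocyte RNA. The defining adipocyte genes Adipoq and Plin1, chosen for naming after their values were seen, reached at most 0.618 and 0.293 FPKM, both in NC, and Lep was at 0 in all NC and SZ-A mice. The part of macrophages or adipocytes in the Pparg difference was not tested. An antisense gene within Pparg, Gm44079, reached 0.103 FPKM at most, and reads of the 2 strands cannot be told apart where strand was not used in counting.

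Ppara (ENSMUSG00000022383, chromosome 15, 85734983 to 85802819) had nearly equal medians in the 3 groups. The lowest, median and highest values were 13.1, 52.5 and 63.0 FPKM in NC, 39.6, 52.6 and 58.6 FPKM in HFD and 33.7, 51.8 and 64.6 FPKM in SZ-A mice. The lowest mouse was the one numbered 5 in each group, and the other 15 mice lay between 47.5 and 64.6 FPKM. SZ-A and HFD mice differed by -0.02 on the log2 scale (95% interval -0.34 to 0.31, limma adjusted p = 0.974). HFD and NC mice differed by 0.26 (95% interval -0.42 to 0.94, limma adjusted p = 0.596), and by -0.08 without NC5 and 0.34 without NC6. The sign thus rested on NC5, as it did in SZ-A against NC, at 0.24 with NC5 and -0.10 without it.

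Ppard (ENSMUSG00000002250, chromosome 17, 28232700 to 28301474) was tested on its own, by a two-sided exact permutation test over the 924 arrangements of 12 mice, whose smallest possible p is 0.00216. It measured 0.496, 0.845 and 1.01 FPKM in NC, 0.724, 0.951 and 1.01 FPKM in HFD and 0.832, 0.975 and 1.46 FPKM in SZ-A mice, from 65 to 200 fragments per mouse. The 3 ranges overlapped throughout. The log2 difference was 0.14 in SZ-A against HFD (exact permutation p = 0.329), 0.19 in HFD against NC (exact permutation p = 0.208) and 0.33 in SZ-A against NC (exact permutation p = 0.0476, or 0.143 when adjusted over its 3 comparisons), with 6 of 6 SZ-A mice above the NC mean. The last unadjusted p was above 0.05 when any one of 9 of the 12 mice was left out, NC5 and NC6 among them (exact permutation p = 0.0519 and 0.0844).

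Rxra (ENSMUSG00000015846, chromosome 2, 27676440 to 27762957), the partner of all 3 PPARs, was 74.3, 101 and 110 FPKM in NC, 85.9, 98.2 and 116 FPKM in HFD and 90.3, 113 and 121 FPKM in SZ-A mice. NC5 was again the lowest of its group and SZ-A5 the lowest of the SZ-A group. The log2 difference was 0.13 in SZ-A against HFD (95% interval -0.08 to 0.33, limma adjusted p = 0.567), 0.02 in HFD against NC (limma adjusted p = 0.916, and -0.06 without NC5) and 0.15 in SZ-A against NC (limma adjusted p = 0.446). With a mouse left out, the Rxra difference in SZ-A against NC ranged from 0.07 to 0.20.

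Ppargc1a (ENSMUSG00000029167, chromosome 5, 51454250 to 51567726) was lower in HFD and SZ-A mice than in NC mice by point estimate, with no comparison past the threshold. The lowest, median and highest values were 1.04, 1.84 and 4.68 FPKM in NC, 0.944, 1.14 and 1.74 FPKM in HFD and 0.686, 0.95 and 1.80 FPKM in SZ-A mice. NC1, at 4.68 FPKM, NC4, at 2.99 FPKM, and NC2, at 1.97 FPKM, were above every mouse on the high-fat diet, while the other 3 NC mice lay within the range of those mice. HFD mice differed from NC mice by -0.72 (standard error 0.30, 95% interval -1.36 to -0.08, limma adjusted p = 0.0997), which had an unadjusted p under 0.05, and 6 of 6 HFD mice were below the NC mean. The difference was -0.49 without NC1 (limma adjusted p = 0.17), -0.82 without NC5 and -0.77 without NC6, and it passed the threshold without NC3 (-0.90, limma adjusted p = 0.0378). SZ-A mice differed from NC mice by -0.87 (95% interval -1.60 to -0.14, limma adjusted p = 0.125), and from HFD mice by -0.15 (95% interval -0.68 to 0.38, limma adjusted p = 0.823).

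Ppargc1b (ENSMUSG00000033871) was 0.698, 1.31 and 1.62 FPKM in NC, 0.895, 1.27 and 1.39 FPKM in HFD and 0.344, 0.977 and 1.80 FPKM in SZ-A mice. The SZ-A group was the widest of the 3, from 24 fragments in SZ-A5 to 128 in SZ-A1, and enclosed both other groups. The log2 difference was -0.26 in SZ-A against HFD (95% interval -0.93 to 0.41, limma adjusted p = 0.746), and -0.01 without SZ-A5. HFD and NC mice differed by 0.03 (95% interval -0.41 to 0.46, limma adjusted p = 0.946), or -0.06 without NC5, and SZ-A and NC mice by -0.23 (limma adjusted p = 0.715). A microRNA gene on the opposite strand within Ppargc1b, Gm25301, reached 1.47 FPKM, and its reads may not be told apart from those of Ppargc1b.

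Adipor1 (ENSMUSG00000026457, chromosome 1, 134415378 to 134433351) was the least variable of the 10 genes, at 23.1, 24.5 and 26.6 FPKM in NC, 20.2, 21.2 and 24.8 FPKM in HFD and 21.6, 21.9 and 24.1 FPKM in SZ-A mice. All NC mice lay above all HFD mice except HFD5, at 24.8 FPKM, and above all SZ-A mice except SZ-A4, at 24.1 FPKM. HFD mice differed from NC mice by -0.20 (standard error 0.07, 95% interval -0.35 to -0.05, limma adjusted p = 0.0583), and SZ-A mice by -0.16 (95% interval -0.29 to -0.03, limma adjusted p = 0.125), with 6 of 6 mice below the NC mean in each case and an unadjusted p under 0.05 in both. Without NC5 and without NC6 the HFD difference was -0.18 and -0.21. The adjusted p was 0.0228 without HFD5, but the difference of -0.24 remained under the 1.2-fold required. SZ-A and HFD mice differed by 0.04 (95% interval -0.09 to 0.18, limma adjusted p = 0.799).

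Adipor2 (ENSMUSG00000030168, chromosome 6, 119353150 to 119417704) lay in the opposite order, at 68.6, 78.9 and 81.8 FPKM in NC, 68.4, 89.3 and 126 FPKM in HFD and 73.4, 85.3 and 94.0 FPKM in SZ-A mice. HFD5 was the highest of all mice and HFD1 the lowest, so the HFD group enclosed both others. HFD mice differed from NC mice by 0.24 (95% interval -0.03 to 0.51, limma adjusted p = 0.192), SZ-A from NC mice by 0.15 (95% interval -0.02 to 0.32, limma adjusted p = 0.255) and SZ-A from HFD mice by -0.09 (95% interval -0.37 to 0.18, limma adjusted p = 0.781). Without HFD5 the last difference was 0.0015 and that of HFD against NC 0.15, while leaving out NC5 or NC6 gave 0.25 for the latter. With every mouse scaled to the same FPKM total, a common sum, which moved the median of all genes from -0.03 to 0.15 in HFD against NC and from 0.03 to -0.15 in SZ-A against HFD, Adipor2 was called higher in HFD than in NC mice (0.43, limma adjusted p = 0.0129) and the Adipor1 difference was -0.01. The same rescaling changed the split of all called genes from 1092 higher and 970 lower to 2100 higher and 334 lower in HFD against NC, and from 8 and 7 to 10 and 206 in SZ-A against HFD.

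Prkaa2 (ENSMUSG00000028518, chromosome 4, 105029874 to 105109890), the main AMPK catalytic subunit here by level, was 4.99, 7.81 and 9.42 FPKM in NC, 7.88, 8.56 and 13.2 FPKM in HFD and 6.31, 7.60 and 9.59 FPKM in SZ-A mice. All 6 HFD mice were above the NC mean and 5 of 6 SZ-A mice below the HFD mean, with overlapping ranges. HFD and NC mice differed by 0.27 (95% interval -0.07 to 0.61, limma adjusted p = 0.246), or 0.15 without NC5 and 0.27 without NC6. SZ-A and HFD mice differed by -0.26 (standard error 0.14, 95% interval -0.55 to 0.04, limma adjusted p = 0.4), or -0.15 without HFD5, the highest mouse. SZ-A and NC mice differed by 0.01 (95% interval -0.30 to 0.33, limma adjusted p = 0.971), or by -0.11 to 0.08 with a mouse left out.

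Prkaa1 (ENSMUSG00000050697, chromosome 15, 5143861 to 5181899) ranged from 2.24 to 3.01 FPKM in NC, from 2.17 to 2.97 FPKM in HFD and from 2.27 to 3.21 FPKM in SZ-A mice, with medians of 2.69, 2.76 and 2.46 FPKM. The 3 groups covered the same range. The log2 difference was -0.06 in SZ-A against HFD (95% interval -0.28 to 0.17, limma adjusted p = 0.839), 0.02 in HFD against NC (95% interval -0.20 to 0.24, limma adjusted p = 0.905) and -0.04 in SZ-A against NC (limma adjusted p = 0.881). The antisense gene Gm15938 within Prkaa1 reached 0.431 FPKM at most.

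In the PPARs, adiponectin receptors and AMPK subunits 1 member held most of the level per length in every mouse. The shares are fractions of summed FPKM and were described without a test. Of the PPAR sum Ppara made up 90.4% ± 5.42, 88.1% ± 2.63 and 88.8% ± 3.57 in the NC, HFD and SZ-A groups (± SD, 6 mice each), with its lowest share in the mouse numbered 5 of each group, at 79.7%, 84.0% and 82.8%. Pparg made up 7.62% ± 3.91, 10.3% ± 2.42 and 9.39% ± 3.52, and its highest share was in the same 3 mice. Adipor2 made up 75.5% ± 2.12, 80.7% ± 2.74 and 79.2% ± 2.10 of the receptor sum, between 73.1% and 83.6% in any mouse. Prkaa2 made up 73.9% ± 3.15, 77.0% ± 3.57 and 74.4% ± 5.07 of the AMPK catalytic sum. The 2 coactivators were close to even, with Ppargc1a at 62.5% ± 15.7, 50.7% ± 9.65 and 52.9% ± 16.7 and a span from 29.4% in SZ-A1 to 87.0% in NC1.

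**Figure D3:**
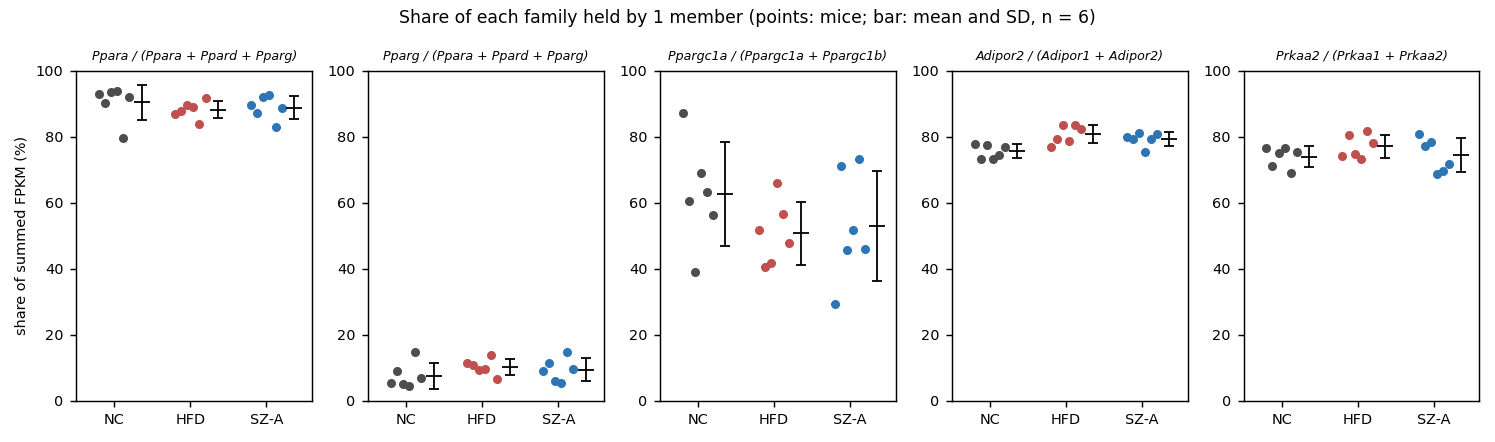
Share of the summed FPKM of a family (y axes, 0 to 100%) held by Ppara, Pparg, Ppargc1a, Adipor2 and Prkaa2 in the 3 groups, with 1 point per mouse and a bar for the mean and SD of 6 mice. Ppara is at least 79.7% in every mouse, and Ppargc1a spreads from 29.4% to 87.0%.

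The genes around the members were read from 7 lists, whose counts stand in place of a test of the list. Of 18 PPAR partners and co-regulators, none was called in HFD against NC or in SZ-A against HFD by limma, and none had an unadjusted p under 0.05 in either. Voom likewise called none. In HFD against NC 1 was called higher after scaling to a common sum or without HFD5 or HFD6, and 2 with sample weights. Ncoa1, a steroid receptor coactivator and the listed gene with the smallest p in SZ-A against HFD, averaged 2.74 FPKM in NC, 2.76 FPKM in HFD and 2.52 FPKM in SZ-A mice (limma adjusted p = 0.374 in SZ-A against HFD). In SZ-A against NC the corepressor gene Nrip1, chosen for naming after its values were seen, was called lower (-0.33, limma adjusted p = 0.0466), a call that was lost when any one of 10 of the 12 mice was left out, NC6 but not NC5 among them, and under 4 of 9 other alternatives.

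Among the PPAR-alpha targets 17 of 40 were called lower and 1 higher in HFD against NC, with all 40 tested, beside 9.49% and 10.7% of all genes, with a median of -0.27 beside -0.03. Without NC5 these counts were 15 and 1, and without NC6 16 and 1. After rescaling to a common sum they were 8 and 3, with a list median of -0.08 beside 0.15 for all genes. Cpt1a, which admits fatty acids to mitochondria, fell from 237 ± 27.8 FPKM in NC to 150 ± 14.2 FPKM in HFD mice (log2 fold change -0.66, limma adjusted p = 0.000699) and was 162 to 192 FPKM in SZ-A mice. Cyp4a10, a fatty acid hydroxylase whose reads may be shared with near-identical neighbours, averaged 1747 FPKM in NC and 866 FPKM in HFD mice (limma adjusted p = 0.000855), and Angptl4, an inhibitor of lipoprotein lipase, fell by 0.66 on the log2 scale. Plin5, a coat protein of lipid droplets, fell from 98.2 ± 45.5 FPKM to 38.3 ± 5.73 FPKM (log2 fold change -1.26, limma adjusted p = 0.0022) and was 47.9 ± 13.3 FPKM with SZ-A. The called gene that rose was Vnn1, a pantetheinase (0.83), named after its values were seen. In SZ-A against HFD none of the 40 was called by limma or by voom, 7 had an unadjusted p under 0.05, and the median was 0.10 beside 0.03. In SZ-A against NC 10 were called lower and 1 higher, beside 4.3% and 5.31% of all genes, with a median of -0.16.

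Among the PPAR-gamma targets of fatty liver, all 12 tested, 7 were called higher and 0 lower in HFD against NC, beside 10.7% and 9.49% of all genes. The median was 0.90 beside -0.03, and 6 or 7 were called higher without NC5 or NC6. Without NC1, 6 were called higher and 1 lower. Plin2 (-0.45) and Cidec (-0.76), named after their values were seen, were lower by estimate and not called. At a mean FPKM of at least 5, 9 were tested and 4 called higher, with a list median of 0.16. In SZ-A against HFD 2 were called lower and 0 higher (median -0.54), where 0.0685% of all genes were called lower. Mogat1, an enzyme of triglyceride synthesis, measured 0.693 to 1.33 FPKM in NC, 3.87 to 9.08 FPKM in HFD and 0.816 to 2.39 FPKM in SZ-A mice, so HFD mice overlapped with neither group. Cd36, a fatty acid uptake protein, measured 10.9 to 41.3 FPKM in NC, 77.6 to 117 FPKM in HFD and 31.7 to 78.1 FPKM in SZ-A mice, with SZ-A2 alone reaching the HFD range. Both calls in SZ-A against HFD were lost under the replicate block and with no filter on low values, that of Mogat1 also when any one of 7 of the 12 mice was left out and that of Cd36 when any one of 8 was. Lpl, lipoprotein lipase, rose in HFD against NC (1.31, limma adjusted p = 0.0017) and averaged 1.37, 3.57 and 1.61 FPKM in NC, HFD and SZ-A mice. Plin4, a lipid droplet protein, rose by 1.13 on the log2 scale in HFD against NC, and it measured 2.94 to 6.13 FPKM in NC, 7.29 to 17.6 FPKM in HFD and 4.76 to 11.4 FPKM in SZ-A mice. In the same SZ-A and HFD mice the Pparg difference itself was -0.20 and not called. Fabp4 and Cidec of this list are also in the adipocyte list, and Cidec, named after its values were seen, was called lower in SZ-A against NC (-1.76), a call that was lost when any one of 9 of the 12 mice was left out, NC5 among them.

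Of the 18 PGC-1 targets 17 were tested, and 4 were called lower and 0 higher in HFD against NC (median -0.16 beside -0.03 over all genes), with 2 lower without NC5 and 6 without NC6, beside 9.49% of all genes called lower and 10.7% higher. Of 17 genes, 2 are close to that share. The gluconeogenic genes Pck1 and G6pc fell by 1.15 and 1.26 on the log2 scale (limma adjusted p = 0.000253 and 0.0305), and Pck1 averaged 1167, 525 and 762 FPKM in NC, HFD and SZ-A mice. Cycs, cytochrome c, and Tfb2m, a mitochondrial transcription factor, fell by 0.47 and 0.29. The G6pc call was lost when any one of 6 of the 12 mice was left out, NC5 among them, and that of Tfb2m when any one of 9 was, also NC5 among them. Under 10 other alternatives G6pc lost its call in 3 and Tfb2m in 5, the common sum and the replicate block among them for both. The Cycs call was lost under the common sum. After rescaling to a common sum 1 was called lower and 2 higher, and the list median turned to 0.03 beside 0.15 for all genes. In SZ-A against HFD none of the 17 was called by limma or by voom, 1 had an unadjusted p under 0.05, and the median was 0.07.

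Adiponectin itself (Adipoq) was at or near 0 in these livers, and 4 of the 11 genes of the adiponectin pathway and receptor family were tested. Paqr7, a progestin receptor related to the adiponectin receptors, rose from 20.2 ± 5.96 FPKM in NC to 34.0 ± 9.47 FPKM in HFD mice (log2 fold change 0.75, limma adjusted p = 0.0427) and was 30.4 ± 10.7 FPKM with SZ-A. This call was lost when any one of 10 of the 12 mice was left out, all but HFD5 and NC6, with all 18 mice in one fit and with no filter on low values. Appl1, the adaptor that binds the adiponectin receptors, was called lower in SZ-A than in NC mice (-0.63, limma adjusted p = 0.0138), at 1.29 ± 0.216 against 2.06 ± 0.371 FPKM, and was named after its values were seen. It was 1.73 ± 0.426 FPKM in HFD mice and was not called against either. None of the 4 was called in SZ-A against HFD by limma or by voom, and 2 had an unadjusted p under 0.05.

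Of 17 AMPK subunits and regulators 12 were tested, and 2 were called higher in HFD against NC, or 1 without NC6, a share near the 10.7% of all genes called higher. Fnip2, a partner of folliculin that binds AMPK, rose from 1.90 ± 0.572 FPKM in NC to 4.42 ± 0.629 FPKM in HFD mice (log2 fold change 1.23, limma adjusted p = 0.00103) and was 4.80 ± 0.900 FPKM with SZ-A, where it was again called against NC (1.33). Stradb, a pseudokinase partner of the upstream kinase LKB1, rose by 0.27 on the log2 scale, a call lost without HFD2, HFD3, NC2 or NC6. The Stradb call was also lost at a pseudocount of 1 and with the replicate block. Cab39, which holds that kinase complex together and was named after its values were seen, was called lower in SZ-A against NC (-0.27), a call that was lost when any one of 9 of the 12 mice was left out, NC6 among them, and under 4 of 10 other alternatives. Of 15 AMPK substrates 14 were tested, and 2 were called higher and 2 lower in HFD against NC, beside 10.7% and 9.49% of all genes. The lipogenic regulators Srebf1 and Mlxipl rose by 1.53 and 0.59, and Gys2, liver glycogen synthase, and Ulk1, a kinase of autophagy, fell by 0.90 and 0.36. The Mlxipl call was lost when any one of 8 of the 12 mice was left out, NC5 and NC6 not among them, and with no filter on low values. That of Ulk1 was lost after scaling to a common sum. Neither list had a called gene in SZ-A against HFD by limma or by voom, with 1 and 4 genes at an unadjusted p under 0.05 and medians of 0.08 in both.

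**Figure D4:**
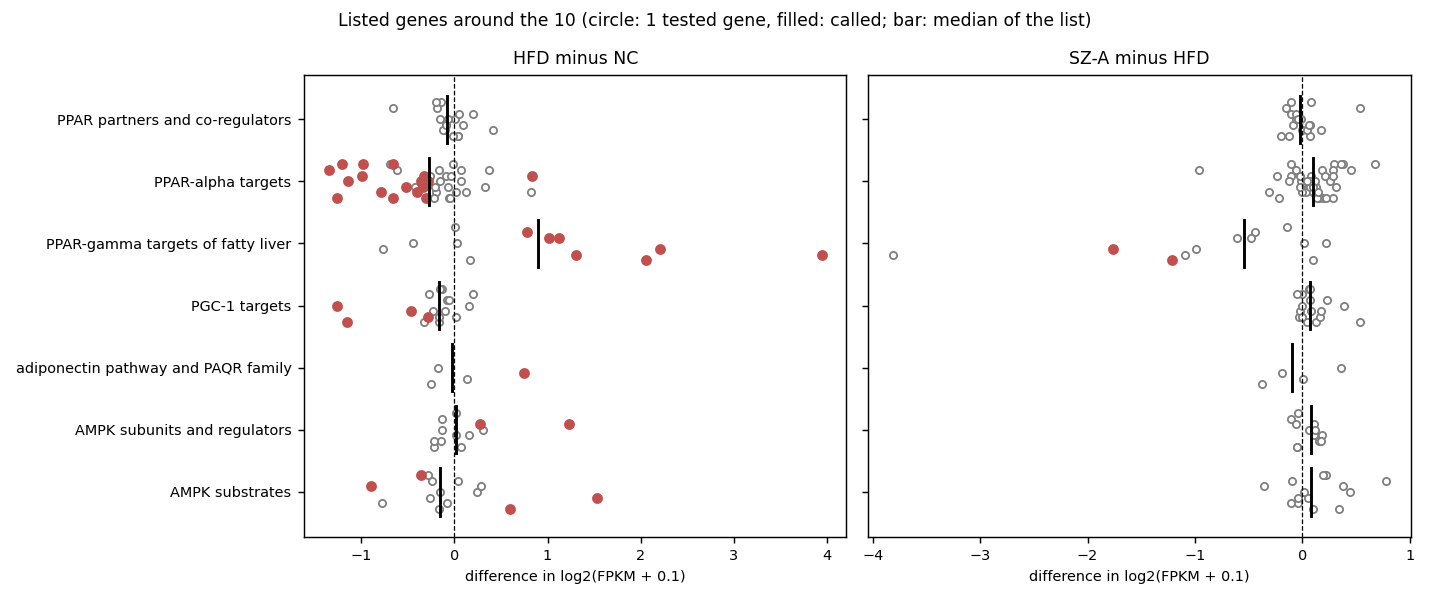
Difference in log2(FPKM + 0.1) (x axes) for each tested gene of the 7 lists (rows) in HFD minus NC and SZ-A minus HFD, with called genes filled and a bar at the median of the list. In HFD minus NC the PPAR-alpha targets lie mostly to the left (median -0.27) and the PPAR-gamma targets to the right (median 0.90), and in SZ-A minus HFD Mogat1 and Cd36 are the filled points.

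Some markers of other cell types and some hepatocyte markers also moved between NC and HFD mice. Of 8 hepatocyte markers 3 were called lower and 0 higher in HFD against NC, beside 9.49% and 10.7% of all genes. Cps1, a urea cycle enzyme, was at 1181, 441 and 547 FPKM in NC, HFD and SZ-A mice, and Apoa1 and Tat were the other called genes. The Apoa1 call was lost with no filter on low values. In SZ-A against HFD limma called none of the 8 and voom 1, with 3 at an unadjusted p under 0.05. Of 10 stellate and endothelial cell markers 5 were called higher in HFD against NC, beside 10.7% of all genes: Col1a1, Pdgfrb, Reln, Lrat and Lyve1. The others, Des, Stab2, Clec4g, Pecam1 and Kdr, were not called. Without NC5, 3 were called higher (Lrat then among those lost), and without NC6, 4. The sum of the list was 48.9 to 57.2 FPKM in NC, 60.6 to 74.5 FPKM in HFD and 55.9 to 61.4 FPKM in SZ-A mice. Of the Kupffer cell markers Cd68, Lyz2 and Adgre1 rose with HFD, while Clec4f, Csf1r, Marco, Timd4 and Vsig4 were not called. Cd68 fell with SZ-A (-0.64, limma adjusted p = 0.0451). The calls of Adgre1 with HFD and of Cd68 with SZ-A were each lost when any one of 8 of the 12 mice was left out, under the replicate block and with no filter on low values, and that of Cd68 also with all 18 mice in one fit. Cfd, counted among the adipocyte markers and also made by other cells, averaged 2.91, 52.4 and 7.54 FPKM in NC, HFD and SZ-A mice and was listed at 0 in NC5, so its log2 fold change depends on the pseudocount. The part of these cell types in the list counts was not tested.

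Ppara was low in NC5 and SZ-A5, in which several clock genes also stood at an end of their group. Clock genes were read because Ppara transcription is rhythmic in liver. In NC5, with Ppara at 13.1 FPKM against 48.4 to 63.0 FPKM in the other NC mice, 12 of 17 clock genes were the lowest and 3 the highest of the group, beside 30.79% and 33.61% of the 10216 genes. NC5 was also the lowest NC mouse for 10 of 15 AMPK substrates, 7 of 8 Kupffer cell and macrophage markers and 7 of 10 stellate and endothelial cell markers, so this was not particular to clock genes. Dbp, a clock output gene, was 0.990 FPKM in NC5 against 2.78 to 14.0 FPKM in the other NC mice, and Nr1d1 (REV-ERB-alpha) 5.54 FPKM against 20.4 to 27.1 FPKM. Arntl (BMAL1), which peaks in the opposite phase, was 2.79 FPKM against 0.663 to 1.70 FPKM. In SZ-A5, with Ppara at 33.7 FPKM, 9 of 17 clock genes were the lowest of the SZ-A group and 4 the highest, beside 24.59% and 24.47% of all genes, and Dbp was 7.22 FPKM against a group median of 34.6 FPKM. In HFD5, with Ppara at 39.6 FPKM, 2 were the lowest and 3 the highest, beside 18.89% and 26.72%, and Dbp was 24.5 FPKM, near the group's median of 25.1 FPKM. Low Ppara and low Dbp thus coincided in NC5 and SZ-A5 but not in HFD5. NC3, with Dbp at 2.78 FPKM, had Ppara at 63.0 FPKM. Among groups, Dbp averaged 7.42, 24.8 and 31.5 FPKM in NC, HFD and SZ-A mice (log2 fold change 2.17 in HFD against NC, limma adjusted p = 0.00991), and Per3 and Cry2 rose with it and Clock fell. Of 14 tested, 4 were called higher and 1 lower in HFD against NC, beside 10.7% and 9.49% of all genes. These counts were 5 and 1 without NC5 and 3 and 0 without NC6. The Clock call was lost when any one of 6 of the 12 mice was left out, NC6 among them, and also with no filter on low values and after scaling to a common sum. None of the 14 was called in SZ-A against HFD by limma or by voom, and none had an unadjusted p under 0.05. The times at which the mice were killed are not given in the sources used here, and the part of time of day in any difference from NC was not tested.

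**Figure D5:**
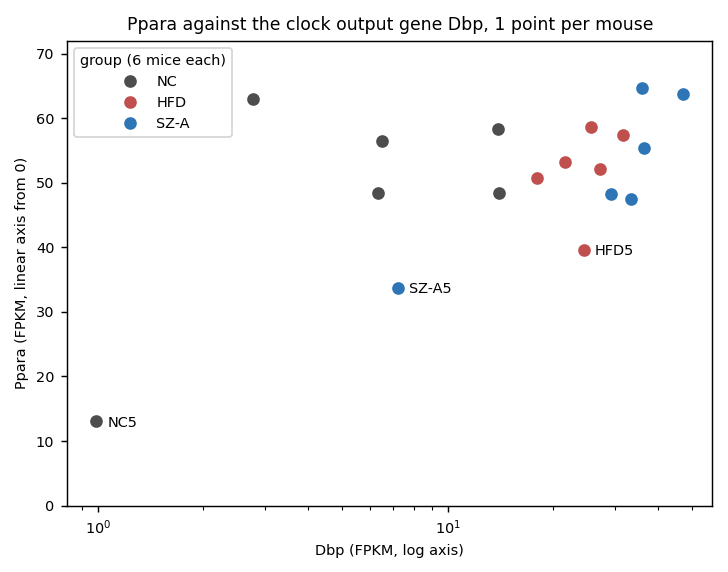
FPKM of Ppara (y axis, linear from 0) against FPKM of Dbp (x axis, log scale) with 1 point per mouse, coloured by group, and the mice numbered 5 named. NC5 (0.990 and 13.1 FPKM) and SZ-A5 (7.22 and 33.7 FPKM) lie below the other mice of their groups on both axes, and HFD5 on the Ppara axis alone.

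For each member the 3 tested genes whose log2 FPKM followed it most closely over the 18 mice were listed, by Pearson's r, as a description. The mice share group and library depth, and the best of 10216 genes reaches a high r by selection. For Ppara they were Dpp8 (0.971), Slc10a5 (0.953) and Atg9a (0.941). NC5 weighed on these values, which were 0.875, 0.834 and 0.763 over the other 17 mice. For Pparg they were Ckb (0.872), Gnai2 (0.864) and Cotl1 (0.861), and with group means removed these were 0.748, 0.725 and 0.708. For Ppargc1a they were Slc7a2 (0.831), Nsun3 (0.819) and Slco1a4 (0.791). For Ppargc1b they were Gm11788 (0.843), Mfsd4b4 (0.825) and Casp9 (0.804). For Rxra they were Maco1 (0.875), Iqgap2 (0.837) and Eif4ebp2 (0.827), which were 0.783, 0.721 and 0.722 without NC5. For Adipor1 they were Zfp771 (0.887), Hspa9 (0.876) and Eif5a (0.873), and for Adipor2 Casp8 (0.850), 3110082I17Rik (0.847) and Cdadc1 (0.821). For Prkaa2 they were Aff1 (0.861), Wdr48 (0.847) and Fam126b (0.834). Prkaa1 and Ppard were followed less closely, with Stk3 (0.746), Fbxw11 (0.723) and Srprb (0.693) for Prkaa1 and Rgs16 (0.762), Il1r1 (0.761) and Tinagl1 (0.740) for Ppard.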

How the data were processed

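The libraries were made from poly-A RNA and read from both ends. Per the submitters' processing notes, the authors used HISAT2 2.0.5 and featureCounts 1.5.0-p3 on mm10 (GRCm38). The authors deposited 1 table of FPKM with gene length, which was used only to recover fragments. FPKM times length gave whole fragments for 100% of values within 0.05 of a fragment, from which depth was worked back.

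Groups came from sample titles. Each comparison was fitted on its own 12 mice with limma 3.58.1 in R 4.3.3 (lmFit, eBayes with trend) on log2(FPKM + 0.1), a scale that understates changes of low genes, for the 10216 genes that averaged 1 FPKM or more over 18 mice. P-values were adjusted over these by the Benjamini-Hochberg method, and a call needed more than a 1.2-fold difference and an adjusted p below 0.05. Standard errors and 95% intervals are from limma. The script was tested on simulated data. Python 3.11.15, numpy 2.4.6, pandas 2.3.3 and matplotlib 3.10.9 did the rest. No library appeared to be deposited again, since chi-square per degree of freedom between mice of a group was 20.3 or more.

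The members were picked by symbol with no measured value in the rule, but they, the gene lists and the tests were chosen with earlier results of these data known. The checks of single named calls under each alternative were added after the data were seen. Listed genes were named by rule: up to 4 called genes of smallest adjusted p per list in SZ-A against HFD and in HFD against NC, otherwise the gene of smallest p in SZ-A against HFD, and per member the 3 most correlated genes. The clock values of single mice and the adipocyte genes at or near 0, and the other genes said to be named after their values were seen, fall outside the rule. Alternatives were pseudocounts of 1 and 0.01, no filter, a mean FPKM of at least 5, a common sum, median-ratio scaling, 1 fit of all 18 mice, sample weights, a replicate block, voom on whole fragments and each mouse left out.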

Additional observations from a re-analysis of the deposited data

Results flagged for a closer look

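In 5 of the 30 sets of 6 mice (10 genes in 3 groups) the highest or lowest mouse lay so far from the next that the gap, as a share of the whole range, passed Dixon's 95% critical value for 6 mice, which chance alone passes in about 1 in 20 sets. Ppara in NC5 was 13.09 FPKM, and the nearest NC mouse was 48.37 FPKM (share 0.707). Ppard in SZ-A3 was 1.457 FPKM, above the next SZ-A mouse at 1.052 FPKM (share 0.648). Adipor1 was 24.84 FPKM in HFD5, above the next HFD mouse at 21.89 FPKM (share 0.640), and 24.15 FPKM in SZ-A4, above the next SZ-A mouse at 22.29 FPKM (share 0.720). Prkaa2 in HFD5 was 13.17 FPKM, above the next HFD mouse at 9.473 FPKM (share 0.698). HFD5 was the highest HFD mouse for 5 of the 10 genes, and NC5 the lowest NC mouse for 5.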

How the results depend on the processing

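Pparg in HFD against NC kept its call under each alternative that tested it, at 0.66 to 0.99 (limma adjusted p = 0.00216 to 0.0217), each mouse left out included. The number of the 10 genes called there was 0 at a mean FPKM of at least 5, where Pparg was not tested, 2 after rescaling to a common sum (Pparg and Adipor2) and 2 with the replicate block (Pparg and Ppargc1a, limma adjusted p = 0.046 for the latter), and 1 to 2 with a mouse left out. In SZ-A against NC it was 0 to 1 with a mouse left out. Over all genes, SZ-A against HFD gave 3 calls with no filter, 26 at a mean FPKM of at least 5, 216 after the common sum, 35 with all 18 mice in one fit, 233 with sample weights, 27 with voom, and 2 to 49 with a mouse left out, with 2 without HFD4 or SZ-A6 and 49 without SZ-A2. HFD against NC gave 1271 at a mean FPKM of at least 5. SZ-A against NC gave 637 with no filter, 1682 with sample weights and 601 to 1179 with a mouse left out, 601 without SZ-A3 and 629 without SZ-A6. The cause of these shifts was not tested, except that fewer or more genes entered with another filter.

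None of the 10 genes was called in SZ-A against HFD under any of these alternatives by limma or voom. Signs of small differences changed. In SZ-A against HFD, Ppara was 0.0555 with sample weights, and after the common sum Ppard was -0.0215, Rxra -0.0526 and Adipor1 -0.14. In HFD against NC with sample weights, Ppara was -0.0264, Ppargc1b -0.0901, Rxra -0.084 and Prkaa1 -0.0457, and in SZ-A against NC Prkaa2 was -0.0553. With a mouse left out, Ppara ranged from -0.0911 to 0.10 in SZ-A against HFD, from -0.0836 to 0.37 in HFD against NC and from -0.0989 to 0.36 in SZ-A against NC, Adipor2 from -0.18 to 0.0015 in SZ-A against HFD, Ppargc1b from -0.10 to 0.12 and Prkaa1 from -0.0243 to 0.0807 in HFD against NC, Rxra from -0.0591 to 0.0612 in HFD against NC, Ppargc1b from -0.40 to 0.0156 and Prkaa2 from -0.11 to 0.0754 in SZ-A against NC. Genes at about 1 FPKM rest on few fragments, down to 24 in a mouse.

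The replicate numbers did not pair the mice: deviations of same-numbered mice from their group means correlated at -0.117 to 0.292, and not every mouse was closest to its own number. The replicate block gave 0 calls over all genes in SZ-A against HFD and changed no other member's call than that of Ppargc1a.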
